A study of Homo sapiens with 10 samples.

Results

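Of 18144 genes with deposited expression values, 9 were examined here for their place in TGF-beta and activin signalling. They were taken by gene symbol and chosen by their CPM values in these same libraries, so all values of the 9 genes are descriptions without a test. The 9 genes were the ligand genes TGFB1, TGFB2 and INHBA, the latency gene LTBP3, the antagonist gene FST, the receptor genes TGFBR1 and TGFBR2 and the Smad genes SMAD3 and SMAD7. RNA came from 3D spheroids of PC-3, an established human prostate cancer cell line with wild-type genotype per the labels. Untreated spheroids (CTRL) were sequenced on days 0, 3 and 7. Spheroids exposed to topotecan, a topoisomerase I inhibitor, were sequenced on days 3 and 7 after a bolus on day 0 (CONV-TOPO) or during daily fractions of the same weekly amount (EE-TOPO, extended exposure). The design text of the series speaks of an exposure of 6 weeks where the labels say day 7, and the label is used here. Each of the 7 libraries is the only one of its treatment and day, and 3 libraries of day 1 were not analysed here. All spheroids were of 1 cell line and kept in culture wells, and the bolus and the daily fractions had not delivered the same amount of drug by day 3.

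TGF-beta ligands are secreted in a latent form that is held in the matrix by latent TGF-beta binding proteins and released by integrins, proteases or thrombospondin. Released TGF-beta binds TGFBR2, which recruits and phosphorylates TGFBR1, whereas activins, built from the INHBA or INHBB product, act through activin receptors. Both routes phosphorylate SMAD2 and SMAD3, which enter the nucleus with SMAD4 and act on target genes, among them the inhibitory SMAD7. Follistatin, the FST product, binds activin and blocks it. In epithelial tumours the pathway is known for growth arrest on the one hand and for epithelial-mesenchymal transition on the other.

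Levels are counts per 1000000 reads (CPM) as deposited, from an estimated 15.0 M to 22.5 M reads per library. Ratios between libraries are log2 ratios after TMM scaling, which lines libraries up on the bulk of their genes, and the ranges in parentheses are 95% intervals that cover counting error only. Scaling added 0.25 to the log2 ratio of CONV-TOPO and 0.22 to that of EE-TOPO against untreated on day 7, and took away 0.05 and 0.07 on day 3. On day 7 the log2 ratios of 11124 genes ran with transcript length (Spearman rho -0.64 for CONV-TOPO and -0.60 for EE-TOPO, across genes, which are not replicates) and with GC content (0.52 and 0.51). A smooth trend with gene span, transcript length and GC content held 45.6% and 42.4% of the variance of those ratios, against 14.2% and 26.8% on day 3. Day-7 ratios, and some of day 3, are therefore also given with this trend removed. The epithelial and mesenchymal genes that mark PC-3 (KRT8, KRT18, VIM and CD44) were all detected, and their summed level was 2344 to 2608 CPM in untreated and 2495 to 3359 CPM in treated spheroids. Of the fibroblast markers COL1A2, LUM, PDGFRB and DCN stayed at or under 1.11 CPM while COL1A1 ranged from 46.6 to 83.0 CPM. Of the leukocyte and endothelial markers PTPRC and VWF stayed at or under 0.489 CPM, CD68 ranged from 65.7 to 128 CPM and PECAM1 from 16.8 to 32.7 CPM. The part of these markers in the results was not tested. In such bulk RNA, fewer cells of a kind and less RNA per cell cannot be told apart.

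On day 3, INHBA stood well below its untreated level under both regimens, FST was lower and SMAD3 and TGFBR2 were higher, while TGFB2 was lower under CONV-TOPO but not under EE-TOPO. On day 7, TGFB1, LTBP3 and SMAD7 were higher and TGFB2, INHBA and TGFBR2 lower under both regimens, and of these LTBP3 and INHBA came within the untreated range once a trend with transcript length and GC content was removed. A difference of at least 2-fold from the untreated library of the same day was reached by 1 of 9 members in each comparison. These were INHBA (lower) on day 3 under CONV-TOPO and under EE-TOPO, TGFB2 (lower) on day 7 under CONV-TOPO and SMAD7 (higher) on day 7 under EE-TOPO. Among the 11332 genes with a mean of at least 5 CPM, which include 8 of the 9 members and not SMAD7, 0.988% differed 2-fold either way under CONV-TOPO (0.432% lower) and 1.97% under EE-TOPO (0.679% lower) on day 3. On day 7 it was 17.9% (9.5% lower) and 20.1% (9.21% higher). The values that chose the members are among these, and both regimens of a day are set against the same untreated library. The INHBA call rests on the untreated library of day 3, as described with that gene.

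**Figure D1:**
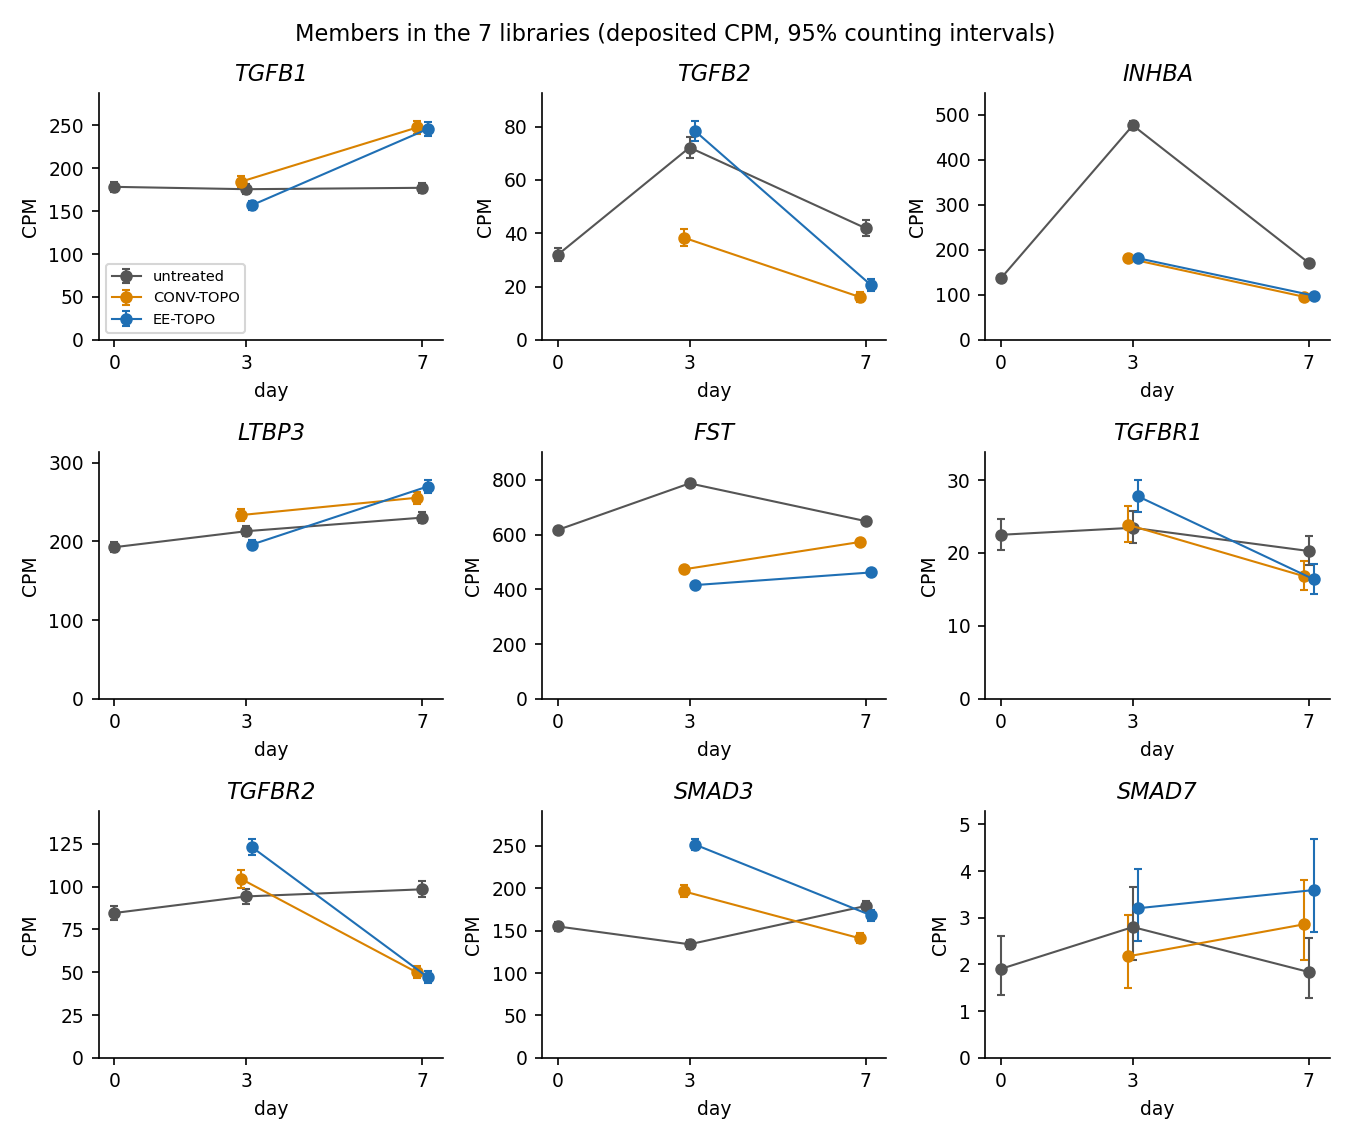
Deposited level (CPM, linear axis from 0) of the 9 members against day in untreated (grey), CONV-TOPO (orange) and EE-TOPO (blue) PC-3 spheroids, 1 library per point, with 95% Poisson intervals of the estimated reads. The INHBA level of 477 CPM in untreated spheroids on day 3 stands above all other libraries, and TGFBR2 lies above the untreated line on day 3 and below it on day 7 under both regimens.

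TGFB1, which encodes the main TGF-beta ligand, is listed on chromosome 19 of hg38 from 41330323 to 41353923 on the minus strand, with 7 exons in its canonical transcript. Untreated spheroids held 178, 176 and 177 CPM on days 0, 3 and 7, so the level hardly differed between them. In CONV-TOPO spheroids it was 184 CPM on day 3 and 247 CPM on day 7. EE-TOPO spheroids had 157 and 246 CPM on these days. Both day-7 treated libraries thus lay above all 3 untreated ones, and day 3 did not show this. The log2 ratio on day 7 was 0.73 (0.67 to 0.80) under CONV-TOPO and 0.69 (0.63 to 0.76) under EE-TOPO, which is 1.66-fold and 1.62-fold. With the length and GC trend removed, the same ratios were 0.19 and 0.13. The TGFB1 transcript is rich in GC (63.6%, percentile 93.6 of annotated genes), where genes in general tended to be higher on day 7. Of its exonic bases 215 are shared with HNRNPUL1 on the other strand, and the setting for strand in the counting is not given in the sources used here, so reads there are uncertain.

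TGFB2, which encodes another TGF-beta ligand, is listed on chromosome 1 from 218345284 to 218444620 on the plus strand. Untreated spheroids held 31.9, 72.2 and 41.9 CPM on days 0, 3 and 7. In CONV-TOPO spheroids it was 38.3 and 16.0 CPM on days 3 and 7, and in EE-TOPO spheroids 78.4 and 20.6 CPM. The day-3 level was thus alike in untreated and EE-TOPO spheroids and lower in CONV-TOPO spheroids, and both day-7 treated levels lay under every other library. Against untreated on day 3 the log2 ratio was -0.96 (-1.10 to -0.82) under CONV-TOPO and 0.05 (-0.05 to 0.15) under EE-TOPO. Against the mean of untreated days 0 and 7, a baseline chosen after seeing the data, the day-3 ratios were -0.02 and 0.99. On day 7 the ratios were -1.14 (-1.34 to -0.93) and -0.80 (-0.998 to -0.61), or -0.55 and -0.19 with the trend removed. TGFB2 was therefore the member whose regimens differed most on day 3, and that difference did not involve the untreated library. Of its exonic bases 701 are shared with TGFB2-AS1 on the other strand and 1371 with TGFB2-OT1 on the same strand, so part of the reads could belong to either.

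The promoters of these ligand genes are shown because their levels went opposite ways on day 7. They are RefSeq sequence of GRCh38.p14 from 250 bases before to 50 bases after the start site, 5′ to 3′ on the gene's strand, at chr19:41353873-41354172 (minus) for TGFB1 and chr1:218345086-218345385 (plus) for TGFB2. Capitals mark matches on either strand to any of 5 motifs, namely the Sp1 GC box GGGCGG, the Smad-binding core CAGAC, the Smad palindrome GTCTAGAC, the AP-1 site TGANTCA and the cyclic AMP response element TGACGTCA, and no match printed here overlaps another.
TGFB1: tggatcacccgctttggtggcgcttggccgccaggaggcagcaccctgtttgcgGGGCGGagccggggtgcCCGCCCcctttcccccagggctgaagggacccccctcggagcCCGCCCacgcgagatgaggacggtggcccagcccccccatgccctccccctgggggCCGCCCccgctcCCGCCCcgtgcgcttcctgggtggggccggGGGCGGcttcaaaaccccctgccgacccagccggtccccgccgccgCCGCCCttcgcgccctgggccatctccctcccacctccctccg
TGFB2: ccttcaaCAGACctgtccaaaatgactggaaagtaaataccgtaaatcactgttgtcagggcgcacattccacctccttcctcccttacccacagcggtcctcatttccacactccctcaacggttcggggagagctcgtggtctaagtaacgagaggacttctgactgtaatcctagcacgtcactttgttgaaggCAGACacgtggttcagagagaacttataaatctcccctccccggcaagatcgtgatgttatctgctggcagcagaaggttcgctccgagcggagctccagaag
The TGFB1 window holds 7 GC boxes and no CAGAC, with 77.3% GC. The TGFB2 window holds 2 CAGAC matches, at positions -243 and -53 counted from the start site at 0, and no GC box, with 51.7% GC. Of 35116 RefSeq promoters of this length 45% hold a GC box, 45.3% CAGAC, 7.71% TGANTCA, 1.85% TGACGTCA and 0.202% the palindrome, so both features are common. None of the promoter windows of the 9 members holds TGACGTCA or GTCTAGAC.

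INHBA, which encodes the beta A subunit of activin A, is listed on chromosome 7 from 41685114 to 41703091 on the minus strand. Untreated spheroids held 137, 477 and 171 CPM on days 0, 3 and 7. CONV-TOPO spheroids had 181 and 96.0 CPM on days 3 and 7, and EE-TOPO spheroids had 181 and 98.1 CPM. The regimens gave nearly the same level on each day, with a log2 ratio of EE-TOPO to CONV-TOPO of -0.02 (-0.09 to 0.05) on day 3 and 0.00 (-0.10 to 0.11) on day 7. Against untreated, the day-3 ratio was -1.44 (-1.50 to -1.38) under CONV-TOPO and -1.46 (-1.52 to -1.41) under EE-TOPO. That size comes from the untreated day-3 library, since the ratio of the same treated libraries to untreated day 0 was 0.28 and 0.26, and to the mean of untreated days 0 and 7 it was 0.16 and 0.14. On day 7 the ratio was -0.58 under both regimens (-0.67 to -0.50 and -0.67 to -0.49), and with the trend removed it was -0.05 and -0.07. INHBA shares 248 exonic bases with INHBA-AS1.

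The untreated day-3 library was the highest of the untreated libraries for 2 ligand genes together. Its log2 ratio to untreated day 0 was 1.72 (1.66 to 1.78) for INHBA and 1.10 (0.96 to 1.23) for TGFB2, whereas 2.19% of genes with a mean of at least 5 CPM differed 2-fold either way (1.81% higher) between these libraries. Of the target genes, CDKN1A, JUNB and CDKN2B were also highest among untreated spheroids on day 3, with 117, 231 and 125 CPM against 48.1, 132 and 70.0 CPM on day 0. With 1 library per day, the day and the library cannot be told apart here.

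LTBP3, which encodes a latent TGF-beta binding protein, is listed on chromosome 11 from 65538559 to 65558360 on the minus strand. Untreated spheroids held 192, 213 and 230.1 CPM on days 0, 3 and 7, CONV-TOPO spheroids 233 and 255 CPM on days 3 and 7, and EE-TOPO spheroids 196 and 269.6 CPM. Both day-7 treated libraries were above the untreated ones, by 0.40 (0.34 to 0.46) and 0.45 (0.39 to 0.51) in log2 ratio to untreated day 7. With the trend removed the ratios were -0.03 and 0.01. The LTBP3 transcript has the highest GC content of the members at 67.7%, percentile 99.0 of annotated genes.

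FST, which encodes follistatin, is listed on chromosome 5 from 53480629 to 53487135 on the plus strand and had the highest level per length of the 9 members in every library. Untreated spheroids held 617, 787 and 649 CPM on days 0, 3 and 7, CONV-TOPO spheroids 473 and 573 CPM on days 3 and 7, and EE-TOPO spheroids 415 and 461 CPM. On deposited CPM all 4 treated libraries lay below all 3 untreated ones, but after TMM scaling this was no longer so, because CONV-TOPO on day 7 had a log2 ratio of 0.07 (0.03 to 0.11) to untreated. The other ratios were -0.78 (-0.82 to -0.74) for CONV-TOPO on day 3, -0.99 (-1.03 to -0.95) for EE-TOPO on day 3 and -0.27 (-0.31 to -0.23) for EE-TOPO on day 7. Part of the day-3 size comes from untreated day 3, the highest untreated library, with a log2 ratio to untreated day 0 of 0.27 (0.23 to 0.30). Both day-3 treated libraries also lay below the other untreated ones. With the trend removed all 4 treated libraries were again below untreated, with ratios of -0.17 and -0.52 on day 7. The promoter is shown since FST was the one member below every untreated library in all 4 treated ones on deposited CPM (chr5:53480379-53480678, plus strand, capitals as for the ligand promoters).
FST: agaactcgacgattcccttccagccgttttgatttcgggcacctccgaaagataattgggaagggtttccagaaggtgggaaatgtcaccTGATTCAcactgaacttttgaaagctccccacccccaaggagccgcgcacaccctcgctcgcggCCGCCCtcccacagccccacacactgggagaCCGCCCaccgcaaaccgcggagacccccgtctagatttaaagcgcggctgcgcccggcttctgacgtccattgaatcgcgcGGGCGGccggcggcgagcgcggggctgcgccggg
It holds 1 TGANTCA match at position -160 and 3 GC boxes, with 63.7% GC, and no CAGAC.

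The receptor genes differed from each other on day 7. TGFBR1, which encodes the type I receptor kinase, is listed on chromosome 9 from 99105113 to 99154192 on the plus strand. Untreated spheroids held 22.5, 23.5 and 20.3 CPM on days 0, 3 and 7, CONV-TOPO spheroids 23.9 and 16.8 CPM on days 3 and 7, and EE-TOPO spheroids 27.8 and 16.4 CPM. All intervals of its ratios to untreated of the same day included 0. On day 3 the ratios were -0.02 (-0.22 to 0.18) under CONV-TOPO and 0.17 (-0.00 to 0.35) under EE-TOPO. On day 7 the ratios were -0.02 (-0.24 to 0.21) and -0.09 (-0.32 to 0.15), and removing the trend turned them to 0.65 and 0.58. Its transcript is long (6492 bases) and poor in GC (38.8%), and its day-7 direction depended on that choice.

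TGFBR2, which encodes the type II receptor kinase that binds TGF-beta, is listed on chromosome 3 from 30606502 to 30694142 on the plus strand. Untreated spheroids held 84.6, 94.3 and 98.4 CPM on days 0, 3 and 7. In CONV-TOPO spheroids it was 104 and 49.8 CPM on days 3 and 7, and in EE-TOPO spheroids 123 and 47.2 CPM. Every treated library of day 3 was above and every one of day 7 below the untreated range, and this held on deposited CPM, after TMM scaling and with the trend removed. On day 3 the counting interval of CONV-TOPO (99.4 to 109.8 CPM) overlapped that of untreated day 7 (94.0 to 103.0 CPM). The ratio was 0.10 (0.00 to 0.20) and 0.32 (0.23 to 0.40) on day 3 and -0.73 (-0.85 to -0.61) and -0.84 (-0.96 to -0.71) on day 7. Without the trend they were 0.05 and 0.17 on day 3 and -0.41 and -0.49 on day 7. Of all genes with a mean of at least 5 CPM, 20.7% had both regimens above untreated on day 3 and below on day 7. The promoter at chr3:30606351-30606650 (plus strand), 1 of 2 RefSeq windows of the gene, is shown since TGFBR2 lay on opposite sides of untreated on the 2 days.
TGFBR2: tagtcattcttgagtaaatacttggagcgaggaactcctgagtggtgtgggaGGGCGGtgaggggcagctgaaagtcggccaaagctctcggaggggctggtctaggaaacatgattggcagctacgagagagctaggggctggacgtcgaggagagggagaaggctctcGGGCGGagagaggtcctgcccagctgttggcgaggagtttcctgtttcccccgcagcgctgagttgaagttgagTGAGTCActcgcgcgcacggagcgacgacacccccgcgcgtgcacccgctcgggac
It holds 1 TGANTCA match at position -6 and 2 GC boxes, with 61.7% GC, and no CAGAC.

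SMAD3, the receptor-activated Smad that carries TGF-beta and activin signals to DNA, is listed on chromosome 15 from 67065602 to 67195196 on the plus strand. Untreated spheroids held 155, 134 and 179 CPM on days 0, 3 and 7, CONV-TOPO spheroids 196 and 141 CPM on days 3 and 7, and EE-TOPO spheroids 252 and 168 CPM. Both treated libraries of day 3 were above all untreated ones, with ratios to untreated day 3 of 0.51 (0.43 to 0.58) and 0.84 (0.77 to 0.91). Untreated day 3 was the lowest untreated library for this gene, and against the mean of untreated days 0 and 7 the ratios were 0.15 and 0.49. On day 7 the ratios were -0.09 (-0.17 to -0.02) and 0.13 (0.06 to 0.21) and, with the trend removed, 0.35 and 0.59. The day-7 direction of SMAD3 under CONV-TOPO therefore flips with the trend, and that under EE-TOPO turns to -0.09 on deposited CPM.

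SMAD7, the inhibitory Smad that TGF-beta itself induces, is listed on chromosome 18 from 48919853 to 48950712 on the minus strand. It was scarce, with 1.90, 2.80 and 1.84 CPM in untreated spheroids on days 0, 3 and 7, or 38, 53 and 35 estimated reads. CONV-TOPO spheroids had 2.17 and 2.86 CPM on days 3 and 7 and EE-TOPO spheroids had 3.20 and 3.59 CPM. Its ratios to untreated were -0.41 (-1.09 to 0.24) and 0.12 (-0.41 to 0.66) on day 3 and 0.89 (0.23 to 1.56) and 1.19 (0.55 to 1.85) on day 7. Both day-7 treated libraries were above all untreated ones on each scale, with ratios of 0.69 and 0.97 after removal of the trend. On deposited CPM their counting intervals (2.10 to 3.80 under CONV-TOPO and 2.70 to 4.69 under EE-TOPO) overlapped that of untreated day 3 (2.10 to 3.66). On day 3 a difference was not detectable at this depth.

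**Figure D2:**
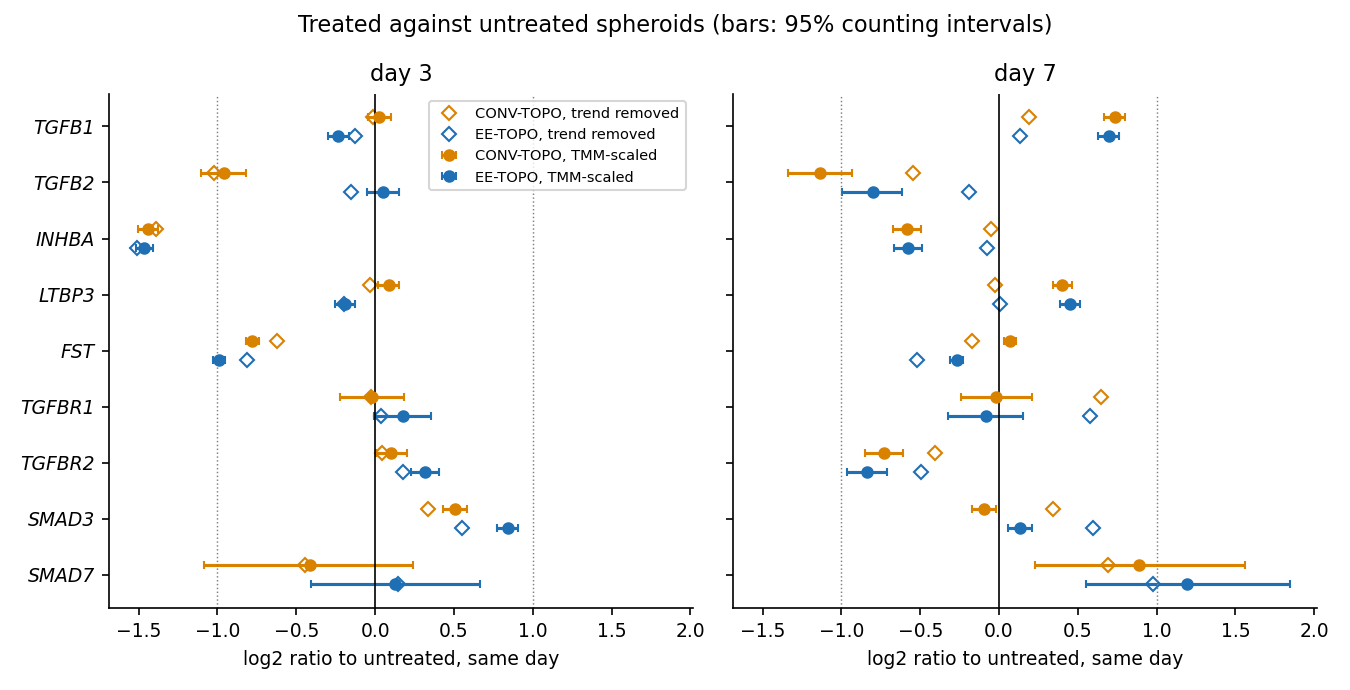
Log2 ratio of each member to same-day untreated spheroids, for day 3 (left) and day 7 (right), for CONV-TOPO (orange) and EE-TOPO (blue). Filled circles with bars are TMM-scaled ratios with 95% counting intervals, open diamonds the ratios with the length and GC trend removed, and dotted lines mark 2-fold. On day 7 the diamonds of TGFB1, INHBA and LTBP3 lie near 0 while those of TGFBR2 and SMAD7 stay on the side of the circles.

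Set against the whole untreated range, both treated libraries of day 3 lay outside it for 3 of 9 members (TGFBR2 and SMAD3 above, FST below), where 35.7% of all genes did so, 14.7% above and 21% below. These 3 did so on all 3 scales (deposited, TMM-scaled and trend removed), and TGFBR1 joined them above the range on deposited CPM. There the CONV-TOPO level of TGFBR1 was within counting error of untreated day 3 (23.9 against 23.5 CPM). Both treated libraries of day 7 lay outside it for 7 of 9 members (TGFB1, LTBP3 and SMAD7 above, TGFB2, INHBA, TGFBR1 and TGFBR2 below), where 68.3% of all genes did, 31.6% above and 36.6% below. Among these, TGFBR1 was below within counting error, since the intervals of its ratios to untreated day 7 included 0. The SMAD7 intervals overlapped that of untreated day 3 on deposited CPM. With the trend removed TGFB1, TGFB2, TGFBR2 and SMAD7 kept their side, INHBA and LTBP3 came within the range, and TGFBR1 turned to above it. Of the members, 0 had all 4 treated libraries outside on the same side after TMM scaling, where 11% of all genes did, 4.47% above and 6.5% below. FST did so on deposited CPM, and FST (below) and SMAD3 (above) did so with the trend removed. With counting intervals off 0 on both days, LTBP3 was higher (7.24% of all genes) and TGFB2 and INHBA lower (9.32%) under CONV-TOPO, and SMAD3 was higher (6.9%) and INHBA and FST lower (10.6%) under EE-TOPO. With the trend removed LTBP3 was no longer higher under CONV-TOPO, at -0.03 on day 3 and -0.03 on day 7. Without the untreated library of day 3, a range chosen after seeing the data, INHBA, TGFBR2, SMAD3 and SMAD7 were above the untreated range on day 3, and all 4 treated libraries were above it for SMAD7. For SMAD7 on day 3 the CONV-TOPO position was within counting error, with 33 estimated reads (2.17 CPM, 1.49 to 3.05). Untreated day 0 had 38 estimated reads (1.90 CPM, 1.35 to 2.61). The share of all genes is not given for this range. A range of fewer untreated libraries is never wider, so at least as many genes lie outside it. These positions are therefore no result about the members.

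**Figure D3:**
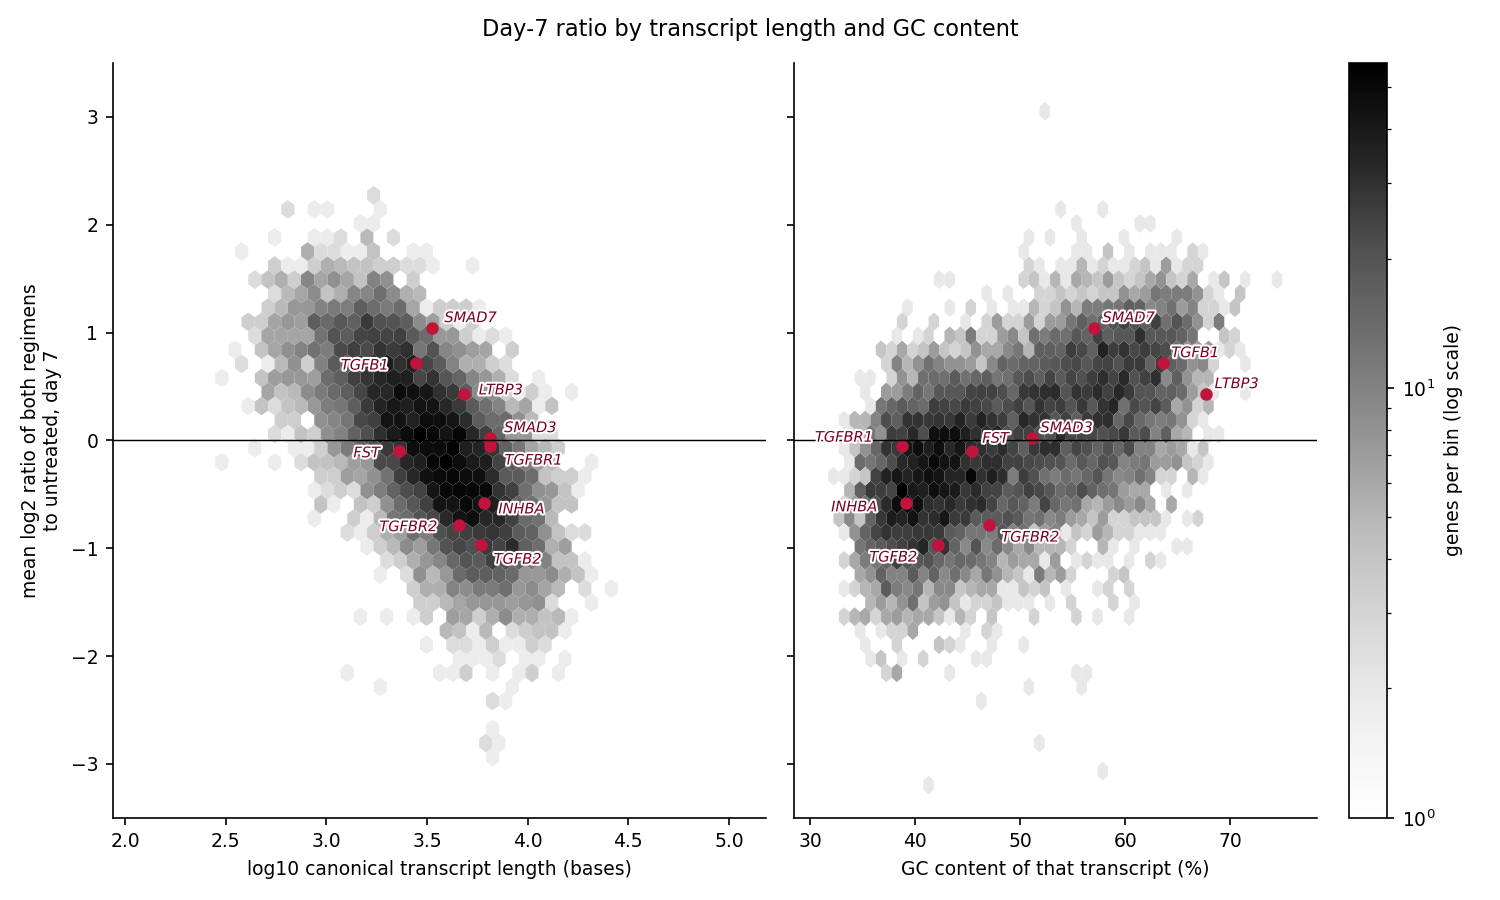
Mean log2 ratio of both regimens to untreated on day 7 against log10 canonical transcript length (left) and GC content of that transcript in percent (right), for 11124 genes in grey bins (24 genes beyond 3.5 either way are not drawn) and for the members in red. TGFB1 and LTBP3 sit among GC-rich genes with higher ratios, and INHBA and TGFB2 among long GC-poor genes with lower ratios.

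Levels can be compared between genes only per length, here as mean CPM per kilobase of canonical transcript over the 7 libraries. On this scale FST led with 247, followed by TGFB1 with 70.2, LTBP3 with 47.0, INHBA with 31.7, SMAD3 with 27.1, TGFBR2 with 19.0, TGFB2 with 7.29, TGFBR1 with 3.32 and SMAD7 with 0.785. The ranges over libraries of FST and TGFB1, of TGFB1 and LTBP3, and of TGFBR1 and SMAD7 did not overlap. INHBA exceeded SMAD3 in 2 of 7 libraries only, and the ranges of LTBP3 and INHBA, INHBA and SMAD3, SMAD3 and TGFBR2, TGFBR2 and TGFB2, and TGFB2 and TGFBR1 overlapped. In every library the antagonist gene FST was thus above the activin gene INHBA, and TGFBR2 above TGFBR1.

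The comparison of EE-TOPO with CONV-TOPO asks whether the schedule mattered, and its 2 days share no library. TGFB2 and SMAD3 were higher under EE-TOPO on both days with intervals off 0, which was so for 7.55% of all genes. FST was lower under EE-TOPO on both days, as 9.81% of all genes were. The log2 ratio of TGFB2 was 1.01 (0.88 to 1.15) on day 3 and 0.33 (0.09 to 0.57) on day 7, the former being at least 2-fold, which 0.503% of genes reached either way. The day-3 ratio was 0.87 with the trend removed, under 2-fold, as it also was with 1 CPM added to each level. That of SMAD3 was 0.34 (0.27 to 0.40) and 0.23 (0.15 to 0.31). That of FST was -0.21 (-0.26 to -0.17) and -0.34 (-0.39 to -0.30). SMAD7 was 0.54 (-0.08 to 1.18) and 0.30 (-0.29 to 0.90), so a difference of either size was not detectable. TGFB1 and LTBP3 were lower under EE-TOPO on day 3 (-0.26 and -0.28) and within counting error on day 7 (-0.04 and 0.05). On day 7, 0 of the 9 members differed 2-fold, where 1.2% of genes did.

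**Figure D4:**
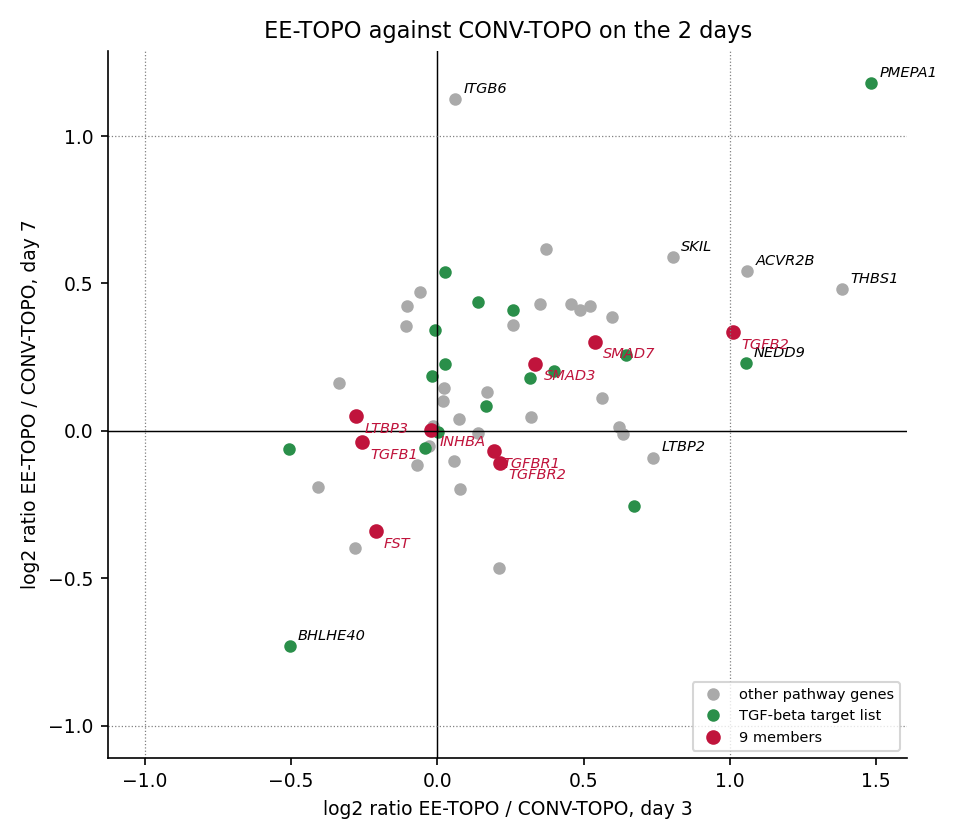
Log2 ratio of EE-TOPO to CONV-TOPO on day 3 (horizontal) and day 7 (vertical), TMM-scaled, for the 9 members (red), the 17 genes of the TGF-beta target list (green) and the 33 other pathway genes (grey) with a mean of at least 5 CPM, with dotted lines at 2-fold. PMEPA1, at 1.48 and 1.18, is the only one drawn past 2-fold on both days, and TGFB2 passes it on day 3.

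The other genes of the pathway came from lists by role, drawn up with earlier results known. Of 70 genes 65 were analysed (GDF3, LRRC32, LEFTY2, TDGF1 and CER1 were not analysed here) and 50 had a mean of at least 5 CPM. Of these 50, EE-TOPO on day 3 had 6 at least 2-fold above and 1 below untreated (1.29% and 0.679% of all genes), and CONV-TOPO on day 3 had 0 above and 1 below (0.556% and 0.432%). On day 7 CONV-TOPO had 2 above and 8 below (8.4% and 9.5%) and EE-TOPO had 6 above and 7 below (9.21% and 10.9%). EE-TOPO was at least 2-fold above CONV-TOPO for 4 of the 50 on day 3 and for 2 on day 7, and below it for 0 on either day (0.282% and 0.221% of all genes on day 3, 0.662% and 0.538% on day 7). The median log2 ratio of the 50 was 0.09 and 0.37 on day 3 for CONV-TOPO and EE-TOPO, against -0.03 and -0.06 for all genes, and 0.03 and 0.22 with the trend removed. On day 7 it was -0.22 and -0.12, against -0.03 and -0.03, and with the trend removed it was -0.02 and 0.19. EE-TOPO exceeded CONV-TOPO on both days, with intervals off 0, for 15 of the 50 genes and was lower for 2, where 7.55% and 9.81% of all genes did so. Among the 15 were TGFB3, THBS1, ITGAV, ITGB8, FSTL3, ENG, ACVR2B, SMAD6, SKIL, SMURF1, PMEPA1, TSC22D1, ADAM19 and PTHLH, and the 2 were LTBP4 and BHLHE40. Over genes in general the ratio of EE-TOPO to CONV-TOPO ran with transcript length on day 3 (rho 0.38), against 0.02 on day 7. The median ratio over the 50 genes was 0.15 on day 3 and 0.17 on day 7. With the trend removed it was 0.16 and 0.18, so the median hardly changed.

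**Figure D5:**
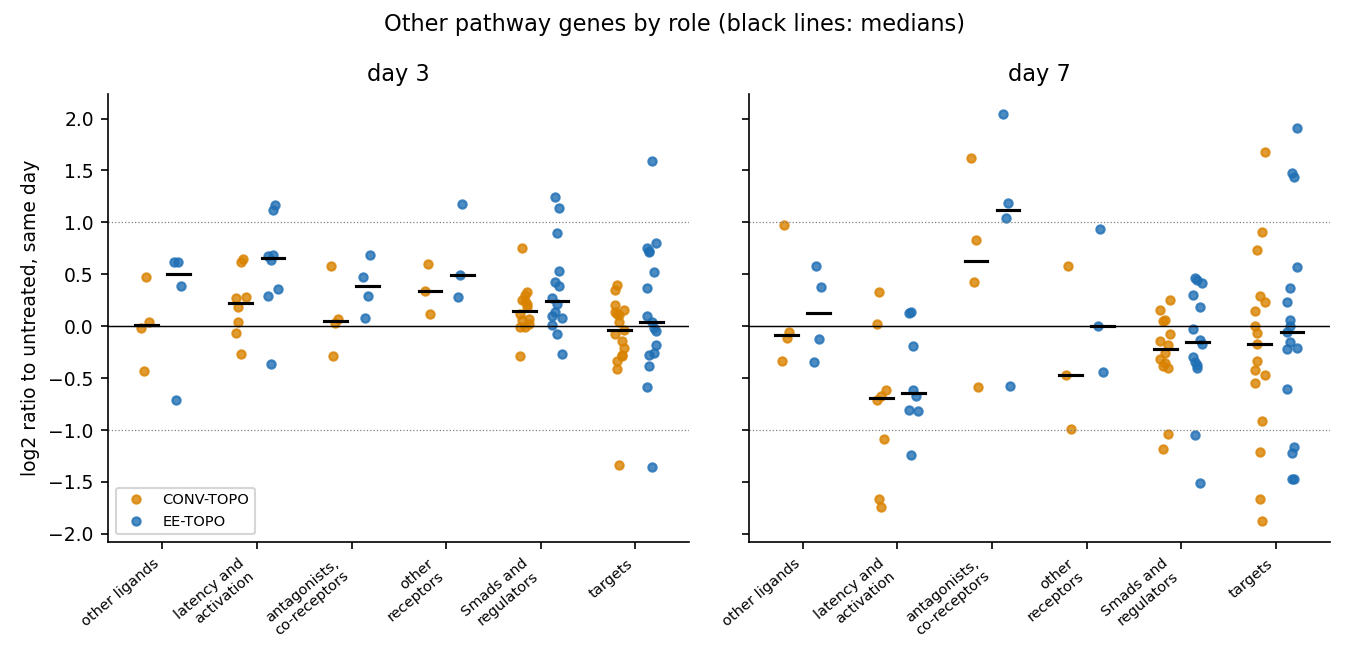
Log2 ratio to same-day untreated spheroids for the 50 other pathway genes by role, day 3 (left) and day 7 (right), CONV-TOPO in orange and EE-TOPO in blue, 1 point per gene, with medians as black lines and dotted lines at 2-fold. The latency and activation genes have medians of 0.23 and 0.66 on day 3 and -0.69 and -0.64 on day 7.

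Latency and activation genes were mostly above untreated on day 3 and below it on day 7. Of 8 such genes, 6 under CONV-TOPO and 7 under EE-TOPO were higher on day 3, and 6 under each regimen were lower on day 7. Of all genes with a mean of at least 5 CPM, 46.0% and 43.6% were above untreated on day 3 and 48.6% and 48.4% on day 7. With the trend removed the medians of these 8 genes were 0.07 and 0.38 on day 3 and -0.25 and -0.20 on day 7. THBS1, whose product thrombospondin-1 can release active TGF-beta, had 74.5, 68.0 and 82.8 CPM in untreated spheroids, 58.5 and 43.8 CPM on days 3 and 7 of CONV-TOPO and 155 and 62.3 CPM under EE-TOPO. The day-3 EE-TOPO library thus held far more THBS1 than any other, at 1.12 (1.03 to 1.21) in log2 ratio to untreated, or 0.96 with the trend removed. On day 7 the THBS1 ratios were -0.67 and -0.19, or -0.20 and 0.27 with the trend removed. ITGB8, an integrin subunit that activates latent TGF-beta, had 57.4, 63.1 and 75.0 CPM untreated, 102 and 29.6 CPM under CONV-TOPO and 149 and 40.5 CPM under EE-TOPO. The ITGB8 ratios were 0.65 and 1.17 on day 3, or 0.56 and 0.89 with the trend removed. On day 7 ITGB8 had ratios of -1.09 and -0.67, or -0.25 and 0.20 with the trend removed. ITGAV, the partner of ITGB8, had a ratio of -1.67 and -1.24 on day 7, or -0.89 and -0.45 with the trend removed. LTBP1, another latent TGF-beta binding protein gene, had 303, 226 and 334 CPM untreated and 183 and 163 CPM on day 7 of CONV-TOPO and EE-TOPO, where its ratios of -0.62 and -0.81 became -0.07 and -0.22 with the trend removed.

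Among antagonists and co-receptors, BAMBI, a pseudoreceptor that blocks TGF-beta receptor signalling, was above the untreated range in all 4 treated libraries. It had 6.46, 10.3 and 8.51 CPM untreated, 15.9 and 22 CPM under CONV-TOPO and 15.0 and 30.1 CPM under EE-TOPO. The day-7 ratios were 1.62 (1.35 to 1.90) and 2.05 (1.78 to 2.31), or 1.07 and 1.48 with the trend removed. TGFBR3, the co-receptor betaglycan, had ratios of -0.59 and -0.58 on day 7 that turned to 0.09 and 0.15 with the trend removed. ACVR2A, an activin type II receptor gene, was also above the untreated range in all 4, with 6.14, 8.45 and 8.97 CPM untreated against 13.2 and 11.2 CPM under CONV-TOPO and 12.5 and 14.7 CPM under EE-TOPO. ACVR1B, the activin type I receptor gene, had ratios of 0.34 and 0.28 on day 3 and -0.47 and 0.00 on day 7.

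Of 14 Smad and Smad regulator genes, 11 under CONV-TOPO and 12 under EE-TOPO were above untreated on day 3, and 10 and 9 were below it on day 7. Of all genes, 46.0% and 43.6% were above untreated on day 3 and 48.6% and 48.4% on day 7. The median of the 14 genes on day 3, 0.15 and 0.24, became 0.05 and 0.03 with the trend removed. Their day-7 median of -0.22 and -0.15 turned to 0.42 and 0.52 with the trend removed. SMAD2, which signals beside SMAD3, had 67.3, 63.9 and 69.4 CPM untreated and 67.0, 55.5, 70.8 and 52.8 CPM in CONV-TOPO days 3 and 7 and EE-TOPO days 3 and 7. SMAD4, the shared partner, had 47.9, 50.5 and 52.5 CPM untreated and 56.5, 35.6, 56.8 and 36.7 CPM in the same treated libraries. Both Smad genes were thus within 1.5-fold of untreated in every comparison, and their day-7 ratios changed sign to between 0.42 and 0.76 once the trend was removed. SKIL, a transcriptional corepressor of Smads that TGF-beta induces, had 7.56, 11.3 and 12.7 CPM untreated, 14.6 and 8.02 CPM under CONV-TOPO and 25.9 and 12.3 CPM under EE-TOPO. Its log2 ratio of EE-TOPO to CONV-TOPO was 0.81 (0.58 to 1.03) on day 3 and 0.59 (0.26 to 0.92) on day 7. SMURF1, a ubiquitin ligase that removes Smads and receptors, was above the untreated range in all 4 treated libraries after TMM scaling but not on deposited CPM, with 49.2, 62.8 and 68.7 CPM untreated against 79.6 and 60.05 CPM under CONV-TOPO and 122 and 80.1 CPM under EE-TOPO.

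Target genes went both ways. Of 17 with a mean of at least 5 CPM, 8 under CONV-TOPO and 9 under EE-TOPO were above untreated on day 3, and 7 and 8 on day 7. CCN2, a matricellular growth factor gene that is also a target of YAP, was the only one below the untreated range in all 4 treated libraries. It had 123, 83.6 and 79.3 CPM untreated, 34.2 and 21.1 CPM under CONV-TOPO and 34.3 and 24.5 CPM under EE-TOPO. Its ratios were -1.33 (-1.48 to -1.19) and -1.35 (-1.48 to -1.23) on day 3 and -1.66 (-1.83 to -1.49) and -1.47 (-1.64 to -1.31) on day 7, and with the trend removed they ran from -1.22 to -2.08.

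PMEPA1, a target whose product restrains TGF-beta signalling, set the regimens apart. It had 12.7, 13.2 and 17.0 CPM untreated, 14.7 and 17.5 CPM under CONV-TOPO and 41.9 and 40.5 CPM under EE-TOPO. CONV-TOPO was thus close to untreated on both days while both EE-TOPO libraries held over 2-fold the level of any other library. The log2 ratio of EE-TOPO to CONV-TOPO was 1.48 (1.27 to 1.70) on day 3 and 1.18 (0.98 to 1.39) on day 7, and 1.45 and 1.17 with the trend removed. TGFBI stayed at or under 0.667 CPM in every library.

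Of 62 genes in the pathway and BMP lists with a mean of at least 5 CPM, 1 (CCN2) was at least 2-fold from untreated in the same direction under both regimens on day 3, and 9 were so on day 7, where 0.485% and 13.9% of all genes were. The day-7 share is thus near that of all genes. Besides CCN2, 8 genes made up the day-7 count. JUNB, an AP-1 gene, had 132, 231 and 123 CPM untreated and 329 and 393 CPM on day 7 of CONV-TOPO and EE-TOPO, with ratios of 1.68 and 1.91, or 0.69 and 0.90 with the trend removed. PTHLH, which encodes parathyroid hormone-related protein, had 55.4, 79.3 and 76.1 CPM untreated and 17.4 and 23.6 CPM on day 7, with ratios of -1.88 and -1.47 that became -2.25 and -1.81. BAMBI and ITGAV have been given, and ZFYVE9, COL5A1, BMPR1A and TRIM33 had mean ratios between 1.12 and 1.27 in size, all lower on day 7. The trend-removed ratios of these 4 were smaller, from -0.18 to -0.96.

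The other pathway genes were also tested in a fit that joined both days, from which no value of the 9 members is given. Limma was run over 6 libraries with terms for treatment and day, on TMM-scaled CPM taken to log2 after adding 1, and days stand in for replicates there. After Benjamini-Hochberg adjustment 0 of 14731 genes passed 0.05 in any of the 3 comparisons (0% called). At an unadjusted p under 0.05 limma gave 525 genes for EE-TOPO against untreated, 254 for CONV-TOPO against untreated and 129 for EE-TOPO against CONV-TOPO, or 3.56%, 1.72% and 0.876% of those tested, and 7, 4 and 2 of the 55 pathway genes tested. For EE-TOPO these were BAMBI, FSTL3, PMEPA1, SMAD6, SMURF1 and TAGLN (higher) and CCN2 (lower). For CONV-TOPO they were BAMBI and TAGLN (higher) and CCN2 and PTHLH (lower), and between regimens PMEPA1 and THBS1 (higher under EE-TOPO). PMEPA1 had an estimate of 1.28 (SE 0.25) on that log2 scale between regimens, with a limma adjusted p of 0.999974. A limma fit on only the 4 libraries of both regimens gave 83 genes past the adjusted threshold, among them PMEPA1 (adjusted p = 0.000775), BHLHE40 (0.00891) and THBS1 (0.00935). Days stand in for replicates there too, and that fit has fewer residual degrees of freedom than the fit on 6 libraries. Its p-values therefore do not measure a spread between replicates, and none of these genes passed in the 6-library fit. In that fit PMEPA1 and THBS1 were higher and BHLHE40 lower under EE-TOPO, on 2 of 2 days each. Fits on the 4 libraries of 1 regimen and untreated gave 32 genes for EE-TOPO and 9 for CONV-TOPO, and 0 of the pathway genes, with 448 and 384 genes at an unadjusted p under 0.05.

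The genes most alike in pattern were sought for 3 members by Pearson's r of log2 levels over the 7 libraries among 11331 other genes. For TGFB2 it was ZNF367 (r = 0.997), with 8.47, 14.8 and 10.5 CPM untreated, 10.5 and 5.41 CPM under CONV-TOPO and 16.4 and 6.59 CPM under EE-TOPO, followed by ATAD2 (0.987). For INHBA it was AP3M1 (0.973), with 307, 419.5 and 336 CPM untreated, followed by NFKB1 (0.971). For FST it was TFB1M (0.976), with 13.7, 15.1 and 13.6 CPM untreated and 10.03 to 11.5 CPM treated, followed by TIMM21 (0.961). With 7 points that share the same libraries and length trend, 192, 50 and 32 genes had r over 0.9 with TGFB2, INHBA and FST.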

How the data were processed

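The authors aligned reads of PC-3 spheroid RNA with STAR (hg38) and deposited CPM, the reads of a gene per 1000000 counted reads, with 0.0001 added to each value, which was subtracted here. DESeq2, edgeR and Partek Flow were named by the study, and counter, annotation, strand and versions are not given in the sources used here. Each CPM column sums to 1000000 over 18144 genes. Low values lay on steps of 1 read, which gave 15.0 M to 22.5 M reads per library, but only 88.2% to 89.7% of low values were whole within 0.02 of a read, so no count test was run. The labels name no batch or date.

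CPM were scaled by TMM (recoded in Python 3.11.15 with numpy 2.4.6, pandas 2.3.3 and scipy 1.17.1, figures with matplotlib 3.10.9). Ratios replaced values of 0 by 3 reads (0.133 to 0.200 CPM), with exact conditional binomial 95% intervals from estimated reads, and levels had Poisson intervals. PCR copies are not independent molecules, so these intervals cover counting error only, and a ratio of 2 libraries compares libraries, not conditions. A call was 2-fold, and its background was the 11332 genes with a mean of at least 5 CPM. The trend was a cubic in gene span, transcript length and GC content (GENCODE 44 on hg38, available for 98.2% of those genes) fitted per library. Promoters came from RefSeq on GRCh38.p14. All 9 members matched by symbol in the table, in GENCODE and in the promoter set.

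The pathway lists were tested with limma 3.58.1 in R 4.3.3 (pseudocount 1 CPM, at least 0.565 CPM, or 10 reads at the median depth of the 6 libraries, in at least 2 of them, mean-variance trend, 2 residual degrees of freedom). These p-values rest on how far a treatment effect varied between days, not on a spread between replicates. Fits on 4 libraries have fewer residual degrees of freedom. The fit and the scaling were also run on simulated data with changes equal on all days and no length or GC trend. That run does not bear on effects that differ by day or on the trend seen here. Named pathway genes were a set list and, beyond it, list genes with a mean of at least 5 CPM that were 2-fold from untreated in 1 direction under both regimens on a day, and, for TGFB2, INHBA and FST, the gene of highest Pearson r. The members and lists were chosen with earlier results of these data known. Alternatives were no further scaling, median-of-ratios size factors, removal of the trend, pseudocounts of 0.1 and 1 CPM, a 1.5-fold call, other untreated baselines and ranges, no filter, no day term and fits on 4 libraries. Baselines and ranges without the untreated day-3 library were added after seeing the data. Some genes of the lists and markers are not reported here.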

Additional observations from a re-analysis of the deposited data

Results flagged for a closer look

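TGFBR2 is flagged because its ratio to untreated lay on opposite sides on the 2 days. Under CONV-TOPO the day-3 ratio was only 0.10 (0.00 to 0.20). Both regimens were above untreated on day 3 and below it on day 7, and the mean log2 ratio of both regimens on day 7 minus that on day 3 was -0.99. With the length and GC trend removed it was -0.56, from ratios of 0.05 and 0.17 on day 3 and -0.41 and -0.49 on day 7. With 1 library per treatment and day this difference was not tested, both regimens of a day share their untreated library, and 20.7% of genes with a mean of at least 5 CPM showed the same order.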

How the results depend on the processing

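Each treatment and day had 1 library, and intervals cover counting error only. No paired analysis was possible because the labels give no replicate numbers, and day entered the fits as a term. Of 150 comparisons of a count with its value under another setting, 114 stayed within 1.5 times and 36 did not. Median-of-ratios size factors, no filter, no day term, a pseudocount of 0.1 CPM and an untreated range of days 3 and 7 only moved 0 of them. For the limma fits these counts are of adjusted p, which are 0 throughout the 6-library fits. Those at an unadjusted p under 0.05 did move: CONV-TOPO against untreated went from 254 genes to 140 with no day term (4 pathway genes to 1) and to 386 with no filter (4 to 2), and EE-TOPO against CONV-TOPO went from 129 to 319 with no filter and to 1477 on only 4 libraries (2 pathway genes to 20). On 4 libraries CONV-TOPO against untreated had 384, and the pathway genes of EE-TOPO against untreated went from 7 to 3. INHBA on day 3 reversed with untreated day 0 as baseline (log2 0.28 for CONV-TOPO and 0.26 for EE-TOPO) and with the mean of untreated days 0 and 7 (0.16 and 0.14), since the untreated day-3 library alone is high.

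Members at least 2-fold from untreated moved as follows. The shares of all genes under these settings are not given, so the counts show only how calls moved, not an excess among the members. With no further scaling, EE-TOPO on day 7 had 0 higher and 2 lower. With the trend removed, CONV-TOPO on day 3 had 2 lower, CONV-TOPO on day 7 had 0 lower, EE-TOPO on day 7 had 0 higher and EE-TOPO against CONV-TOPO on day 3 had 0 higher. With a pseudocount of 1 CPM, the last 2 of these were also 0. At 1.5-fold, CONV-TOPO had 3 lower on day 3 and 2 higher and 2 lower on day 7, and EE-TOPO had 1 higher and 2 lower on day 3 and 2 higher and 2 lower on day 7. Over genes with a mean of at least 5 CPM, the median absolute log2 ratio on day 7 was 0.51 under CONV-TOPO and 0.53 under EE-TOPO. Against the mean of 3 untreated libraries, day 3 had 0 lower under each regimen, and day 7 had 2 lower under CONV-TOPO and 0 higher and 2 lower under EE-TOPO. Against untreated day 0, day 3 had 0 lower under CONV-TOPO and 1 higher and 0 lower under EE-TOPO, and CONV-TOPO on day 7 had 0 lower. Against the mean of untreated days 0 and 7, CONV-TOPO on days 3 and 7 and EE-TOPO on day 3 had 0 lower.

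All 4 treated libraries were below the untreated range for 1 member with no further scaling, and above it for 1 and below it for 1 with the trend removed. With an untreated range of days 0 and 7, 4 members were above it in both day-3 libraries and 1 in all 4. That 1 was SMAD7, whose day-3 position under CONV-TOPO was within counting error. The share of all genes is not given for that range, which is never wider than the full one, so these counts are no result about the members. Fits on only 4 libraries called 32 genes for EE-TOPO against untreated, 9 for CONV-TOPO against untreated and 83 between regimens, with 3 pathway genes in the last.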

Other observations

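The BMP arm of the same superfamily, which signals through SMAD1, SMAD5 and SMAD9, was taken as a comparison list of 15 genes, 12 of them with a mean of at least 5 CPM. Its median log2 ratio to untreated was 0.06 and 0.08 on day 3 and -0.21 and -0.37 on day 7 for CONV-TOPO and EE-TOPO, or -0.13 and -0.01 on day 7 with the trend removed. ID2, a BMP target that inhibits helix-loop-helix factors, was the only one below the untreated range in all 4 treated libraries, with 63.0, 53.6 and 57.0 CPM untreated, 41.7 and 31.6 CPM under CONV-TOPO and 29.5 and 33.6 CPM under EE-TOPO. NOG, which encodes the BMP antagonist noggin, had 51.8, 36.6 and 42.7 CPM untreated, 34.1 and 55.4 CPM under CONV-TOPO and 15.9 and 29.6 CPM under EE-TOPO. The ratio of EE-TOPO to CONV-TOPO for NOG was -1.12 (-1.32 to -0.93) on day 3 and -0.93 (-1.10 to -0.77) on day 7, beside 0.50 and 0.58 for BMP4, a BMP ligand gene.

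CDKN1A encodes the cell cycle inhibitor p21 and is a target of TGF-beta, though not of TGF-beta alone. It had 48.1, 117 and 59.1 CPM in untreated spheroids, 99.0 and 92.8 CPM under CONV-TOPO and 102 and 137 CPM under EE-TOPO. Its log2 ratios were -0.29 and -0.26 on day 3, where they rest on the untreated day-3 library, since the treated levels of that day lay above those of untreated days 0 and 7. They were 0.90 and 1.44 on day 7, or 0.36 and 0.87 on day 7 with the trend removed.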
